A study of Homo sapiens with 12 samples.

Results

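The interleukin-6 (IL6) family genes IL11, IL6, LIF, IL11RA, IL6ST, IL6R, LIFR, OSMR, STAT3 and SOCS3 were chosen by gene name and were found in both deposited tables, which makes 10 of the 60558 genes that the tables share. Of these, 3 encode secreted ligands, 5 encode receptor chains, and STAT3 and SOCS3 encode the transcription factor and the feedback inhibitor of the pathway. MDA-MB-231, an established human triple-negative breast cancer (TNBC) cell line, was used in 2 knockdown experiments, which asked which genes change when the nuclear RNA- and DNA-binding protein NONO or the pyruvate kinase isoform PKM2 is depleted. Poly(A) RNA was sequenced from 3 libraries of negative control (NC) cells and 3 of NONO-knockdown cells, and from 3 libraries of a separate NC group and 3 of PKM2-knockdown cells, so the experiments shared none of the 12 libraries. All groups were of the same line, with the NC cells labelled wild type. The reagent used for the RNA-seq knockdowns and the time after it are not given in the sources used here, nor whether the libraries of a group came from separate cultures, so P values measure the spread between these libraries.

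Cytokines of the IL6 family signal through the shared receptor chain gp130, which IL6ST encodes. IL6 and IL11 first bind their own receptors, IL6R and IL11RA, whereas LIF and oncostatin M bring gp130 together with LIFR or OSMR. The Janus kinases bound to these chains then phosphorylate STAT3, which enters the nucleus and drives target genes, among them SOCS3, whose product blocks gp130 signalling. In breast cancer IL11 and IL6 are known for their links to metastasis to bone.

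Promoter sequences were read first, for the ligands and for the receptors with a match to an AP-1 motif, because IL11 was the member with the largest change in both experiments. RefSeq promoters (build GRCh38.p14, 250 bases before to 50 bases after the start) were found for 9 of the 10 members, 13 promoters in all, and none was listed for LIF. Capitals mark a match on either strand to AP-1 (TGANTCA), STAT (TTCNNNGAA), TEAD (GGAATG) or NF-kB, of which IL6 holds the match. The 250 bases before the start are shown for IL11 (chr19:55370464-55370713, minus strand) and IL6 (chr7:22726950-22727199, plus strand), and 30 bases around the AP-1 match for IL6R (chr1:154405363-154405392, plus strand) and OSMR (chr5:38846003-38846032, plus strand).
IL11: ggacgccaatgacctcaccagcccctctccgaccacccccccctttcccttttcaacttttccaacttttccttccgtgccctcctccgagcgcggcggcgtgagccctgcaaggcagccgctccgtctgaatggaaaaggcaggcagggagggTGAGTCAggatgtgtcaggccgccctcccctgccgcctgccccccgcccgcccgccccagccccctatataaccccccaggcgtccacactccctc
IL6: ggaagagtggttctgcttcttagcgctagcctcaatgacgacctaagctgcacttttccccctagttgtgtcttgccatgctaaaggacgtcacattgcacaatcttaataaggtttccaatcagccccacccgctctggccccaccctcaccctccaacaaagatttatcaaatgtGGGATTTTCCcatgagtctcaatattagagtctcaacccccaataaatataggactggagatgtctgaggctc
IL6R: aggaccgtccgccgctcTGAGTCAtgtgcg
OSMR: ttgccccgcagcTGATTCAtagccccggcc

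The AP-1 motif was in 3 member promoters, those of IL11, IL6R and OSMR, and in 7.71% of all 35116 promoters. In IL11 it began 96 bases before the start, and in IL6R and OSMR it began at bases 38 and 4 of the transcript. The NF-kB motif was in the IL6 promoter alone among the members, 73 bases before the start, and in 0.558% of all promoters. The STAT motif was in 2 of the 3 LIFR promoters (7.66% of all promoters), and the TEAD motif in 1 LIFR and both SOCS3 promoters (14.03% of all). The STAT and TEAD matches in LIFR did not overlap. Such matches are descriptions of letters and not of binding.

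NONO and PKM checked the labels. NONO fell by 2.57 on the log2 scale after NONO knockdown (standard error, SE, 0.05) and PKM, the gene of PKM2, fell by 3.32 (SE 0.05) after PKM2 knockdown, and neither gene fell in the other experiment. The estimated counts summed to between 19861762 and 28455268 per library. The summed level of VIM, CD44, EGFR, KRT8, KRT18 and AXL was 4497 to 5496 TPM (abundance scaled to transcript length and library size) per library, while ESR1, PGR and CDH1 were below 1 TPM and ERBB2 between 13.7 and 35.2 TPM in every library. GATA3, another luminal marker, was at 1.33 to 4.37 TPM. The leukocyte, endothelial and fibroblast markers summed to 0.50 to 1.87, 0.46 to 2.5 and 2.40 to 9.97 TPM per library, with CD14 (up to 1.82 TPM), PECAM1 (up to 2.31 TPM) and COL1A1 (2.17 to 9.93 TPM) as the highest of each and the defining PTPRC, CDH5 and LUM below 1 TPM throughout. Among NC libraries of the NONO experiment the first, and among PKM2-knockdown libraries the third, stood apart from their replicates, with a chi-square per degree of freedom of 8.89 to 13.1 over genes against 2.34 to 4.41 for the other pairs.

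Levels were compared between genes in TPM, which is scaled to transcript length. In NC cells of the PKM2 experiment IL6ST was highest at 95.5 ± 3.70 TPM (SD, n = 3), and IL11 followed at 85.9 ± 4.34. STAT3 (58.9 ± 5.58) and OSMR (45.1 ± 2.36) came next, then LIF, IL6 and SOCS3 between 25.9 and 29.9. LIFR was at 8.04 ± 0.54, IL6R at 3.64 ± 0.45 and IL11RA, the receptor through which IL11 acts, was lowest at 2.83 ± 0.40. LIF and IL6 overlapped over their libraries, as did IL6 and SOCS3, and no other neighbours in this order did. In NC cells of the NONO experiment IL6ST (82.2 ± 5.05 TPM) and IL11 (75.2 ± 7.34) were again first and second and IL11RA (3.57 ± 0.95) and IL6R (3.30 ± 1.40) last, but only IL11 and STAT3, SOCS3 and LIFR, and LIFR and IL11RA were neighbours without overlap.

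**Figure D1:**
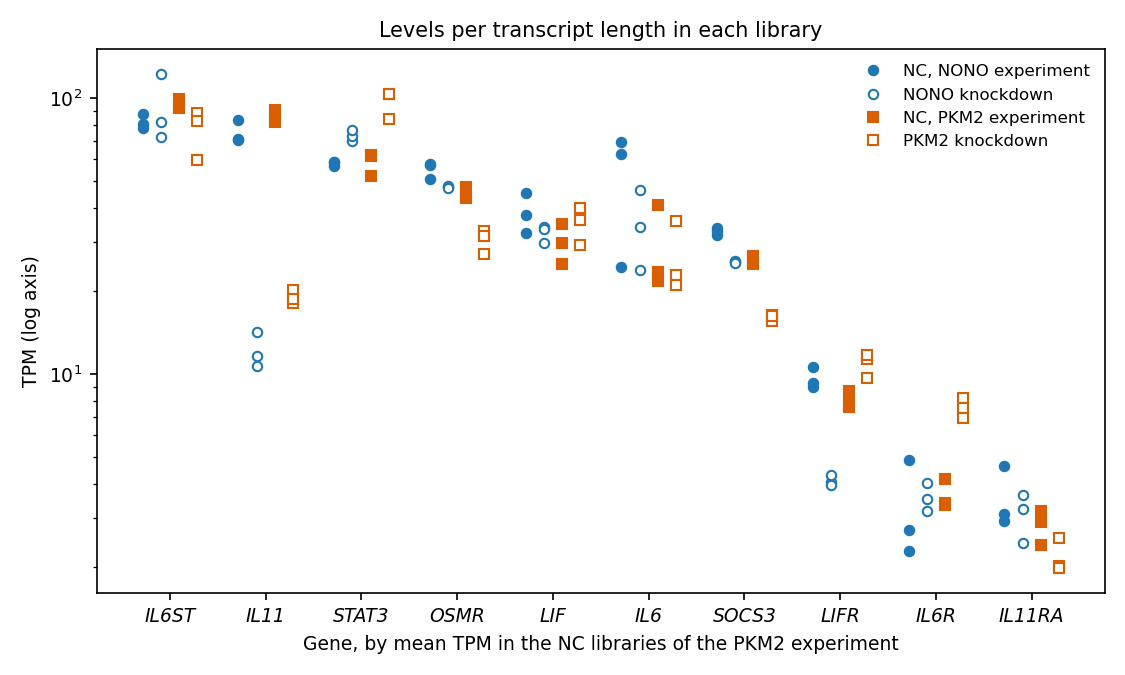
TPM (log axis) of the 10 genes in each of the 12 libraries, ordered by their mean in the NC libraries of the PKM2 experiment. Filled symbols are NC and open symbols knockdown libraries, circles the NONO and squares the PKM2 experiment, and IL11 is second in both NC groups and seventh and sixth after the knockdowns.

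After the knockdowns this order changed mainly in IL11. Its mean level dropped from rank 2 to rank 7 of the 10 genes after NONO knockdown (12.2 ± 1.81 TPM) and to rank 6 after PKM2 knockdown (18.98 ± 1.03 TPM). STAT3 was highest after PKM2 knockdown at 97.1 ± 11.5 TPM, although its range overlapped that of IL6ST.

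Each knockdown was then compared with its own NC group on counts, given as CPM (counts scaled to library size after TMM normalization), by the quasi-likelihood test of edgeR, with P values adjusted by Benjamini-Hochberg over all genes tested. NONO knockdown lowered IL11, LIFR, SOCS3 and OSMR and raised STAT3, so that 5 of the 10 members passed an adjusted P of 0.05, against 33.4% of the 14832 genes tested. The 4 lowered members compare with 17.2% of genes lowered, and the 1 raised member with 16.2% raised. By the study's cutoffs for differentially expressed genes (DEGs), more than 2-fold change and unadjusted P below 0.05, IL11 was the 1 member, against 2.95% of genes. Without the first NC library 7 members passed the adjusted P, with IL6 and LIF as the additional ones. Calls over all genes rose as well in that fit, from 4954 to 6249. PKM2 knockdown lowered IL11, OSMR and SOCS3 and raised IL6R, STAT3, LIFR and LIF, 7 of the 10 members against 68.4% of the 15524 genes tested, with 34.7% lowered and 33.6% raised. The 2 DEGs, IL11 and IL6R, were 2 of 10 against 20.8% of genes. The members' shares after PKM2 knockdown were thus near those of all genes, and their median log2 fold change was -0.01 against -0.01 for all genes (after NONO knockdown -0.12 against -0.01).

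**Figure D2:**
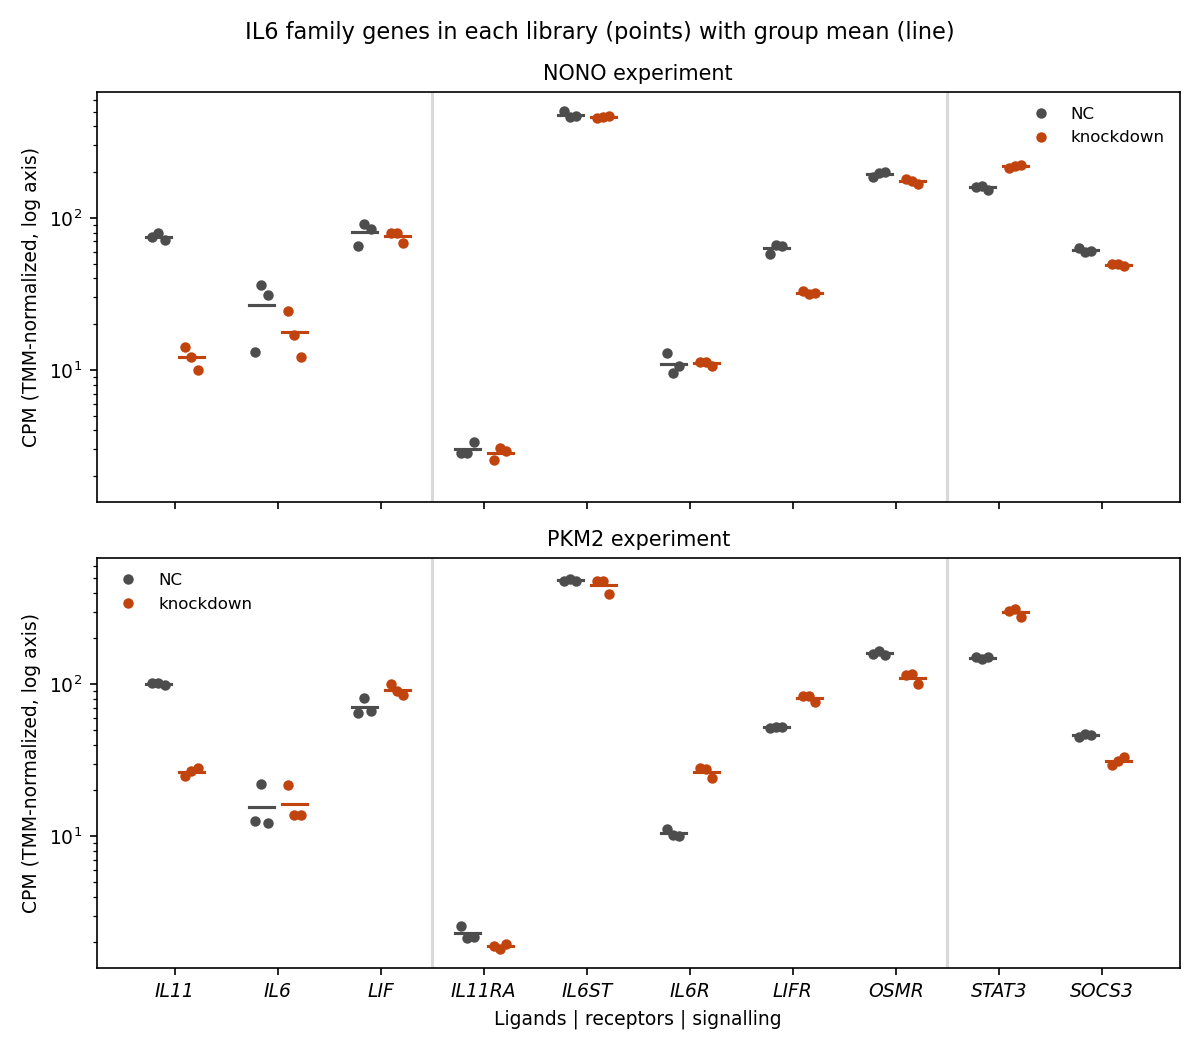
CPM (log axis) of each member in every library, NONO experiment above and PKM2 experiment below, with a line at each group mean. The NC and knockdown points of IL11 are apart in both experiments, while those of IL6 overlap in both.

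IL11 encodes a ligand that acts through IL11RA and gp130 and lies on chromosome 19 (GENCODE 29, GRCh38, 55364389 to 55370463, minus strand). It stood at 75.1, 80.0 and 71.1 CPM in the NC libraries and at 14.2, 12.3 and 10.1 CPM after NONO knockdown. In the PKM2 experiment the values were 101.2, 101.2 and 99.2 CPM in NC and 24.9, 26.7 and 27.9 CPM after PKM2 knockdown. Every knockdown library was thus far below every NC library of its experiment. In bulk RNA, fewer cells that express a gene and less RNA per cell cannot be told apart. The log2 fold change was -2.63 after NONO knockdown (95% confidence interval -2.85 to -2.41, adjusted P = 2.19e-08) and -1.92 after PKM2 knockdown (-2.05 to -1.79, adjusted P = 2.96e-10). IL11 was the 12th most lowered of 14832 genes after NONO knockdown and the 672nd of 15524 after PKM2 knockdown. The fall was larger after NONO knockdown, with a difference of 0.70 between the log2 fold changes (SE 0.12, adjusted P = 8.66e-05, interaction over the 12 libraries). The promoter shown above is that of the gene measured here, with 1 RefSeq entry.

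IL6, the family's best-known inflammatory ligand, varied more between libraries, relative to its mean CPM, than any other member. Its 3 NC libraries of the NONO experiment were at 13.1, 36.0 and 31.1 CPM and the NONO-knockdown libraries at 24.3, 17.0 and 12.2 CPM. In the PKM2 experiment NC cells had 12.5, 22.1 and 12.2 CPM and PKM2-knockdown cells 21.6, 13.7 and 13.8 CPM. The groups overlapped in both experiments, with log2 fold changes of -0.59 (adjusted P = 0.18) and 0.08 (adjusted P = 0.78). The 95% confidence intervals of -1.27 to 0.10 and -0.42 to 0.58 were the widest among the ligands. The antisense gene AC073072.1 shares 20.7% of the exon bases of IL6. Without the first NC library, which was the lowest of its group, the change after NONO knockdown was -0.90 with an adjusted P of 8.04e-05.

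LIF, a ligand of LIFR and gp130, had 65.4, 90.9 and 84.9 CPM in NC and 79.6, 79.1 and 68.4 CPM after NONO knockdown, which overlapped (log2 fold change -0.09, adjusted P = 0.57). In the PKM2 experiment it had 64.7, 80.9 and 66.5 CPM in NC and 100.8, 89.7 and 84.2 CPM after PKM2 knockdown, so all knockdown libraries were higher in CPM. In TPM the groups of LIF overlapped there, at 25.1 to 34.9 in NC and 29.4 to 40.2 after PKM2 knockdown. Its rise there was 0.37 (SE 0.09, adjusted P = 0.0028), which was 0.23 with an adjusted P of 0.21 when TPM values were tested with limma and 0.57 after the trend with GC content and length was taken out. As with IL6, the first NC library was the lowest of its group in the NONO experiment, and without it LIF was lowered by NONO knockdown (-0.21, adjusted P = 0.0067).

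Among the 5 member receptor chains the 2 knockdowns differed most in LIFR, which partners gp130 for LIF. It had 57.9, 66.8 and 65.8 CPM in NC and 33.2, 31.7 and 31.9 CPM after NONO knockdown. In the PKM2 experiment it had 51.5, 52.4 and 52.4 CPM in NC and 83.4, 83.9 and 76.3 CPM after PKM2 knockdown. The groups were apart in both experiments but in opposite directions. The log2 fold change was -0.97 (SE 0.07, adjusted P = 1.85e-06) after NONO knockdown and 0.64 (SE 0.06, adjusted P = 8.95e-07) after PKM2 knockdown, and their difference of 1.60 (SE 0.09) had an adjusted P of 1.21e-10. Without the first NC library of its experiment, the fall after NONO knockdown was -1.03, which also passed the DEG cutoffs. With limma on log2(TPM + 1) the rise after PKM2 knockdown was 0.39 and was still called. On the opposite strand, LIFR-AS1 shares 5.30% of the exon bases of LIFR, and the counting is not stated to use strand.

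IL6R, the receptor that gives IL6 its specificity, stood at 12.9, 9.54 and 10.6 CPM in NC and 11.3, 11.3 and 10.7 CPM after NONO knockdown. After PKM2 knockdown it rose from 11.2, 10.3 and 10.02 CPM to 28.1, 27.6 and 24.1 CPM. The PKM2 knockdown libraries were thus all above NC, and in CPM more than 2-fold, while those of the NONO knockdown lay within the NC range. The log2 fold changes were 0.01 (adjusted P = 0.95) and 1.34 (SE 0.09, adjusted P = 8.27e-08), and their difference was 1.32 (SE 0.15, adjusted P = 1.20e-06). In TPM its mean went from 3.64 to 7.55 with PKM2 knockdown. Limma on log2(TPM + 1) gave a rise of 0.88, by which IL6R was still called but was no longer a DEG. With log2(TPM + 0.1) it remained 1 of 2 member DEGs.

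OSMR, the oncostatin M receptor, had 184.6, 196.0 and 201.6 CPM in NC and 179.8, 175.1 and 168.0 CPM after NONO knockdown. In the PKM2 experiment it fell from 157.2, 164.7 and 155.9 CPM to 115.1, 115.8 and 100.5 CPM. The log2 fold changes were -0.16 (SE 0.05, adjusted P = 0.026) and -0.53 (SE 0.06, adjusted P = 9.55e-06), and the fall was larger after PKM2 knockdown (difference -0.39, SE 0.08, adjusted P = 0.00055). The small fall after NONO knockdown lost its call without any 1 of 4 libraries, namely the second or the third NC library (-0.14, adjusted P = 0.075, and -0.12, adjusted P = 0.13) or the second or the third NONO-knockdown library (-0.16, adjusted P = 0.084, and -0.13, adjusted P = 0.12). It was not called in TPM by limma under any of 3 settings either (adjusted P = 0.052 to 0.091).

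IL6ST, the shared gp130 chain, passed no test. It lay between 456.8 and 507.7 CPM in all 6 libraries of the NONO experiment, and between 475.6 and 490.8 CPM in the PKM2 experiment except in the third PKM2-knockdown library, at 388.5 CPM. The log2 fold changes were -0.05 (95% confidence interval -0.15 to 0.05) and -0.11 (-0.26 to 0.05). In TPM, the PKM2-knockdown libraries at 88.6, 82.9 and 59.7 were all below the NC libraries at 92.4, 99.6 and 94.6, a difference that did not pass limma's test either. IL11RA had 42 to 75 counts per library, or 1.81 to 3.37 CPM, and log2 fold changes of -0.09 (-0.50 to 0.32) and -0.29 (-0.74 to 0.17). Neither change passed the test, although the PKM2-knockdown libraries (1.81 to 1.94 CPM) all lay below the NC libraries (2.15 to 2.56 CPM). In TPM these groups of IL11RA overlapped, at 1.98 to 2.55 and 2.40 to 3.18. Of its exon bases, 9.60% are shared with AL162231.3 and 7.82% with GALT, both on the same strand.

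STAT3 and SOCS3 moved in opposite directions to each other in both experiments. STAT3 had 160.8, 161.9 and 153.6 CPM in NC and 213.7, 218.5 and 223.2 CPM after NONO knockdown. With PKM2 knockdown it went from 150.7, 145.9 and 150.8 CPM to 303.1, 312.1 and 277.0 CPM. All knockdown libraries were above all NC libraries, with log2 fold changes of 0.46 (SE 0.04, adjusted P = 1.48e-05) and 1.00 (SE 0.05, adjusted P = 1.60e-08). The rise was larger after PKM2 knockdown (difference 0.52, SE 0.07, adjusted P = 6.95e-06). Under the alternatives that kept all libraries, the rise of STAT3 was 0.33 to 0.47 after NONO and 0.71 to 1.01 after PKM2 knockdown.

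SOCS3, the feedback inhibitor, had 63.7, 59.6 and 60.9 CPM in NC and 49.8, 49.6 and 48.6 CPM after NONO knockdown, and 44.8, 46.9 and 46.4 CPM against 29.2, 31.3 and 33.2 CPM after PKM2 knockdown. It was lower in every knockdown library. The log2 fold changes were -0.32 (SE 0.05, adjusted P = 0.00076) and -0.56 (SE 0.06, adjusted P = 8.77e-06), with a difference of -0.26 (SE 0.08, adjusted P = 0.013). After the trend with GC content and length was taken out, the fall after PKM2 knockdown was -0.36. Its GC content of 59.99% was the highest of the members, against a median of 48.0% over the genes tested in that experiment.

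**Figure D3:**
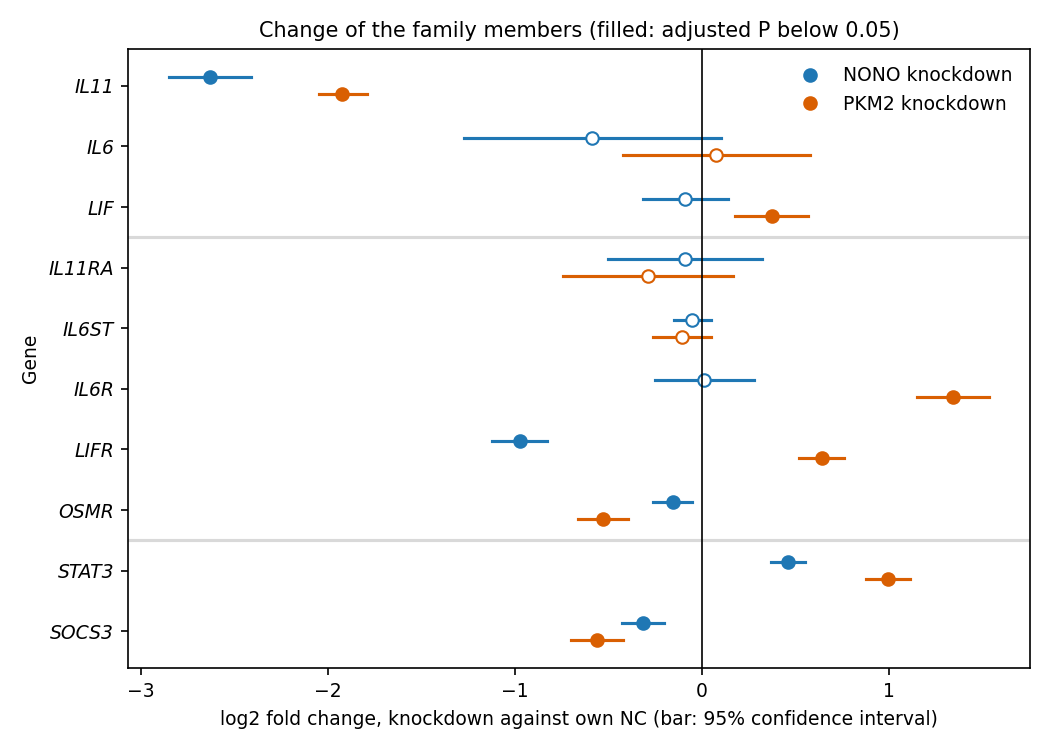
Log2 fold change of each member against its own NC group after NONO (blue) and PKM2 (orange) knockdown, with 95% confidence intervals and filled points for an adjusted P below 0.05. IL11 is low in both, STAT3 high in both, and LIFR lies on opposite sides of 0 at -0.97 and 0.64.

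The difference between the 2 knockdowns passed the test for 7 of the 10 members (IL11, LIF, IL6R, LIFR, OSMR, STAT3 and SOCS3), against 53.1% of the 15995 genes tested. It did not for IL6 (0.65, 95% confidence interval -0.29 to 1.59), IL11RA (-0.21, -0.76 to 0.34) or IL6ST (-0.07, -0.27 to 0.13). Without both libraries that stood apart, a choice made after seeing the data, 8 members passed, and IL6 was the additional one (1.08, adjusted P = 0.014). Calls over all genes went from 8497 to 8738 in that fit.

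The other genes of the pathway came from lists by their known roles, and those named below are the called genes of each list with the largest fold changes. The counts of each list stand against 17.2% lower and 16.2% higher of all genes after NONO knockdown and 34.7% and 33.6% after PKM2 knockdown, with a median log2 fold change of -0.01 in both. Of the 8 other ligands of the family, 5 had enough counts to be tested, and OSM, IL27 and IL31 did not. CLCF1, a ligand of the ciliary neurotrophic factor receptor, fell by 0.40 (adjusted P = 0.0080) after NONO knockdown, and EBI3, a subunit of IL27, fell by 2.81 (adjusted P = 8.56e-07) after PKM2 knockdown. No other ligand was called. Of the 7 other receptor chains 3 were tested. IL27RA fell in both experiments (-0.60, adjusted P = 0.00049, and -2.16, adjusted P = 7.19e-09), the leptin receptor LEPR fell by 1.39 (adjusted P = 0.00016) after PKM2 knockdown, and IL31RA rose by 0.30 (adjusted P = 0.0075) there.

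Downstream of the receptors, 12 kinases, STATs and adaptors were tested, with 1 lower and 4 higher after NONO knockdown and 4 lower and 5 higher after PKM2 knockdown, the latter near the share of all genes. The medians were -0.02 and -0.03. JAK1, the kinase that gp130 depends on most, stood at 144.1 ± 2.94 CPM (SD, n = 3) in NC and at 142.1 ± 5.22 CPM (n = 3) in NONO-knockdown cells. After PKM2 knockdown it was at 23.7, 24.3 and 21.7 CPM, against 128.0, 125.1 and 130.4 CPM in NC. The log2 fold changes were -0.02 (adjusted P = 0.76) and -2.46 (SE 0.06, adjusted P = 8.05e-11), and the difference of -2.45 (SE 0.07) had an adjusted P of 1.15e-13. TYK2, another Janus kinase, fell by 0.66 (adjusted P = 4.44e-07) and STAT2 rose by 0.84 (adjusted P = 3.09e-06) after PKM2 knockdown, and neither was called after NONO knockdown (-0.10 each).

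Negative regulators other than SOCS3 went both ways, with 5 lower and 1 higher of 13 tested after NONO knockdown and 4 lower and 6 higher of 14 after PKM2 knockdown, and medians of -0.04 and 0.06. The share called after PKM2 knockdown was near that of all genes. SOCS1, an inhibitor of Janus kinases, fell by 2.23 (SE 0.34, adjusted P = 0.00054) after NONO knockdown from 2.23 ± 0.34 CPM, a low level, and was -0.41 (adjusted P = 0.11) after PKM2 knockdown. PIAS3, which binds and inhibits STAT3, fell in both (-0.32, adjusted P = 0.0012, and -1.29, adjusted P = 6.14e-08). PIAS2 fell too (-0.26, adjusted P = 0.047, and -0.70, adjusted P = 0.00019), the first of which was not called by DESeq2 (-0.25, adjusted P = 0.11).

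Among 6 genes of receptor shedding and sorting, 4 fell after NONO knockdown, and 3 fell and 2 rose after PKM2 knockdown, with medians of -0.57 and -0.49. SORT1, a sorting receptor that binds several cytokines of this family, fell in both (-0.76, adjusted P = 1.81e-06, and -2.54, adjusted P = 1.19e-10), and so did SORL1 (-1.24, adjusted P = 0.00035, and -1.40, adjusted P = 9.10e-06). RHBDF2, a cofactor of the shedding protease ADAM17, fell by 0.92 (adjusted P = 4.22e-07) after PKM2 knockdown and was at 0.00 (adjusted P = 0.97) after NONO knockdown.

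Genes that STAT3 is known to drive were 3 lower and 6 higher of 23 tested after NONO knockdown, and 5 lower and 12 higher after PKM2 knockdown. Their median log2 fold changes were 0.09 and 0.22. The shares called in either direction were near those of all genes in both (33.4% and 68.4%). By direction they were not near after PKM2 knockdown, where more genes were higher and fewer lower than over all genes. CEBPB, a transcription factor of the acute-phase response, moved in opposite directions, by -1.35 (SE 0.20, adjusted P = 0.00043) after NONO and 0.75 (SE 0.06, adjusted P = 3.20e-07) after PKM2 knockdown (difference 2.09, adjusted P = 8.48e-07), as LIFR did. TGM2 fell by 2.22 (adjusted P = 1.19e-10) after PKM2 knockdown and was at 0.01 (adjusted P = 0.86) after NONO knockdown. HIF1A, a hypoxia factor, fell in both (-0.52, adjusted P = 0.010, and -1.17, adjusted P = 1.60e-08), and in the NONO experiment its first NC library was at 500.1 CPM against 811.7 and 752.4 in the others.

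Genes that control cytokine genes themselves were split as well. A list of 14 genes of cytokine transcription held transcription factors and the NF-kB regulators NFKBIA, an inhibitor, and NFKBIZ. Of these 14, 2 were lower and 4 higher after NONO knockdown, with NFKBIA among the higher (0.61). After PKM2 knockdown 7 were lower and 7 higher, and the medians were 0.01 and -0.03. FOSL1, an AP-1 subunit, was at 569.1 ± 10.1 CPM in NC and 591.8 ± 9.49 CPM after NONO knockdown, but 644.3 ± 7.01 CPM in NC and 142.9 ± 2.44 CPM in PKM2-knockdown cells (SD, n = 3 in each group), or -2.17 on the log2 scale (SE 0.04, adjusted P = 3.75e-11). ATF3 rose by 1.76 (SE 0.26, adjusted P = 8.97e-05) after PKM2 knockdown. TEAD1, whose family binds the TEAD motif above, fell in both (-1.16, adjusted P = 2.19e-08, and -0.48, adjusted P = 0.00035). Of 10 genes that control the decay of cytokine mRNAs, 2 fell and 2 rose after NONO knockdown, and 2 fell and 4 rose after PKM2 knockdown, with medians of -0.01 and 0.10 and shares near those of all genes. ZFP36L1, which promotes such decay, rose by 0.64 (adjusted P = 0.00038) and 0.59 (adjusted P = 5.64e-06), while ZC3H12A and RC3H1 fell after PKM2 knockdown (-0.63, adjusted P = 0.00010, and -0.61, adjusted P = 1.99e-05).

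**Figure D4:**
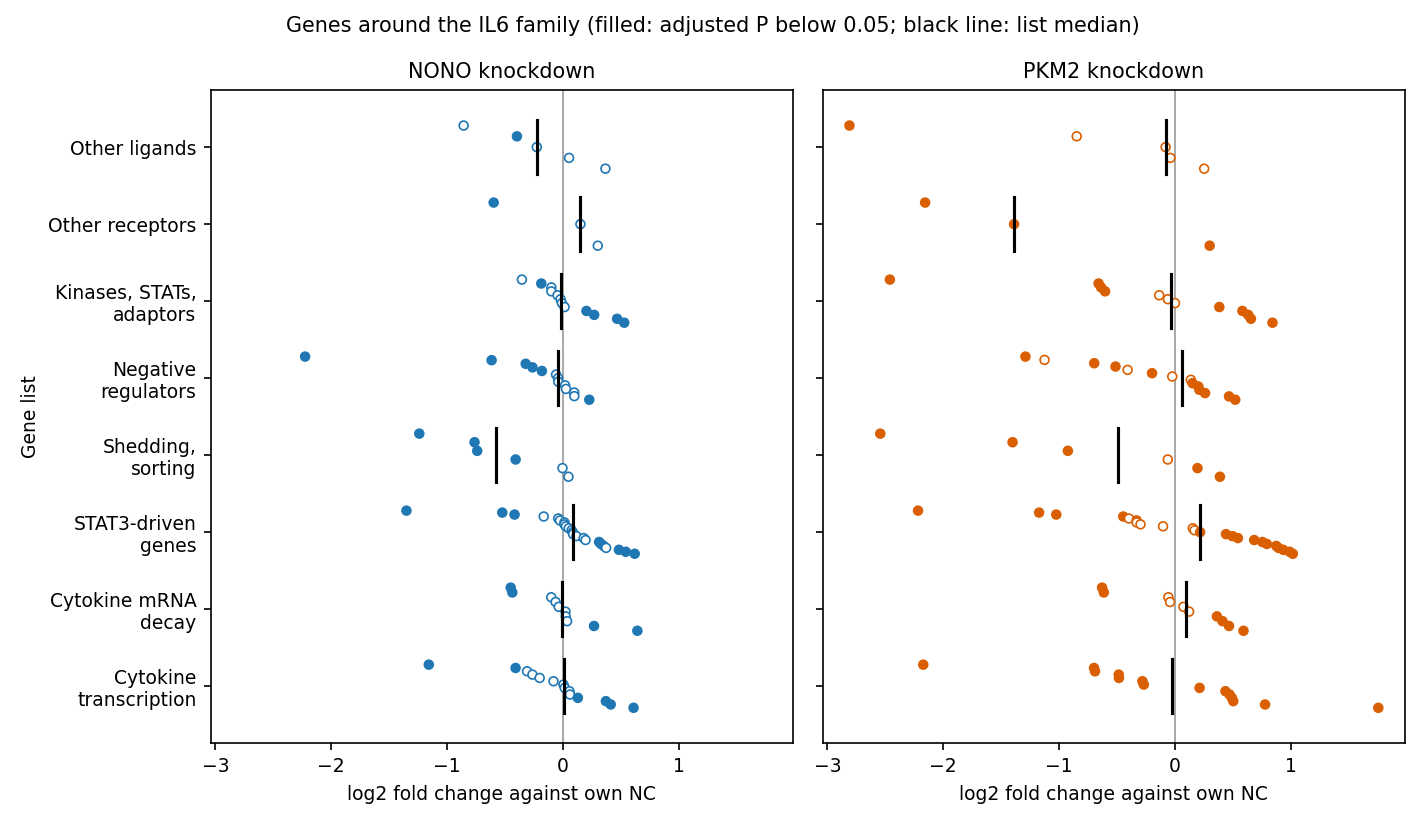
Log2 fold change of each tested gene of 8 lists around the IL6 family, after NONO knockdown (left) and PKM2 knockdown (right), with filled points for an adjusted P below 0.05 and a black line at each list's median. Single genes such as JAK1 at -2.46 and FOSL1 at -2.17 lie far from medians of -0.03 for their lists after PKM2 knockdown.

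The genes whose pattern over the 12 libraries was most like that of IL11 were SMARCD3, FAM189B, DAP, SLC45A3 and FERMT2, among 14525 genes tested in both experiments. Pearson's r of log2 CPM, with the NC mean of each experiment taken off, was 0.994 for SMARCD3 and 0.983 for FERMT2. These points share libraries and the 2 NC means, so the coefficient is a description. All 5 fell in both experiments, which the choice by likeness to IL11 brings with it and which is not a separate result. After NONO and PKM2 knockdown the log2 fold changes were -1.92 and -1.30 for SMARCD3 and -0.86 and -0.69 for FERMT2, an integrin activator. IL11 fell further than each of them in both.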

How the data were processed

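RNA-seq of 12 MDA-MB-231 libraries in 4 groups of 3 was used. For each experiment the authors deposited TPM values and an estimated count per gene, not always a whole number. The submitters' processing notes name fastp, HISAT2, StringTie, RSEM, DESeq2, edgeR, limma and build hg19 without roles, and the handling of strand and of reads that match several genes is not given in the sources used here. The tables share their column names, and columns were therefore assigned by table and the targeted gene was checked. The authors' columns of fold changes, P values and mean TPM were not used, and 0 other columns per library were left out. Gene locations come from GENCODE 29 on GRCh38 and served for location only.

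Estimated counts were rounded and tested with edgeR 4.0.16 (R 4.3.3) after TMM normalization and filterByExpr, each experiment on its 6 libraries without a replicate block, and the difference between knockdowns as an interaction over 12 libraries. Sequences were handled with pandas 2.3.3 and figures with matplotlib 3.10.9. As alternatives, DESeq2 1.42.0, a replicate block, relative log expression factors and no filter on low counts were run, as were limma 3.58.1 on log2(TPM + 1) or log2(TPM + 0.1) with a minimum mean TPM of 1 or unfiltered, removal of the trend in 20 bins of GC content and of length, and each library left out. The procedures were tested on simulated data. Depth was 19861762 to 28455268 counts per library. The named genes were the members, up to 3 called genes of each list with the largest absolute fold change, and the 5 genes most correlated with IL11. The members and lists were chosen with earlier results of these data known.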

Additional observations from a re-analysis of the deposited data

Results flagged for a closer look

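The change after PKM2 knockdown differed from that after NONO knockdown in 7 members, each tested as an interaction in edgeR over the 12 libraries. Of all 15995 genes tested, 53.1% passed the same test, so such a difference was common and not particular to the members. The difference in log2 fold change, PKM2 minus NONO knockdown, was 0.70 for IL11, 0.45 for LIF (adjusted P = 0.019), 1.32 for IL6R, 1.60 for LIFR, -0.39 for OSMR, 0.52 for STAT3 and -0.26 for SOCS3. LIFR is the 1 member that was lowered in all 3 libraries of one knockdown and raised in all 3 of the other. The share of all genes that did so was not counted, so this is not shown to be unusual. For LIF the difference was no longer called without the third NONO-knockdown library (0.38, adjusted P = 0.059), the first NC library of the PKM2 experiment (0.39, adjusted P = 0.055) or the first PKM2-knockdown library (0.38, adjusted P = 0.054), and for SOCS3 without the second NC library of the NONO experiment (-0.22, adjusted P = 0.050).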

How the results depend on the processing

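No member changed direction with a call under any alternative run, and IL11, LIFR, STAT3 and SOCS3 were called in both experiments under every alternative with a test. Removal of the trend with GC content and length gave fold changes without a test. It moved 6 members after PKM2 knockdown by at least their SD within groups, namely IL11RA, IL6R, IL6ST, LIF, LIFR and SOCS3. After NONO knockdown it moved 1, SOCS3. IL11 ranged from -2.75 to -2.51 after NONO knockdown and from -2.17 to -1.87 after PKM2 knockdown. Members that were DEGs after NONO knockdown numbered 2 in place of 1 when TPM values were tested with limma under all 3 settings and 1 to 2 with each library left out. After PKM2 knockdown they numbered 1 in place of 2 with limma on log2(TPM + 1), filtered or not, where IL6R was lost, 3 with DESeq2, relative log expression factors or no low-count filter, and 2 to 3 with each library left out. STAT3, at 1.00 on the log2 scale, was the additional one. Without the low-count filter IL6 was called after NONO knockdown (-0.58, adjusted P = 8.56e-09), and the cause was not tested. Over all genes, calls after NONO knockdown fell from 4954 to 2645, 2657 and 1699 in the 3 limma settings, and with a pseudocount of 0.1 the median over genes in the PKM2 experiment was -0.10. By CPM per kilobase of the deposited gene length in place of TPM, the order in NC cells of the NONO experiment put OSMR at 3, STAT3 at 4, SOCS3 at 6, LIF at 7, IL6R at 9 and IL11RA at 10, and in the PKM2 experiment SOCS3 at 6 and IL6 at 7. The labels do not say what the replicate number means. Deviations from the group mean correlated at -0.07 to 0.04 between NC and knockdown libraries of the same number, and at -0.07 to 0.10 between the others. With 3 libraries per group this cannot show whether those of the same number shared a batch. With a replicate block OSMR was not called after NONO knockdown (-0.16, adjusted P = 0.064), calls over all genes went from 4954 to 4351 and from 10614 to 10525, and the other members kept their calls.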

Other observations

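IL6 and LIF were highest in the same library of each group. In 4 of 4 groups the library with the most IL6 was also the one with the most LIF, for example 36.0 CPM of IL6 and 90.9 CPM of LIF in the second NC library of the NONO experiment. Of the 14524 other genes tested in both experiments, 2.06% peaked in the same library as IL6 in all 4 groups. The other 2 libraries ranked in the same order for both genes in the NONO experiment and in opposite orders in the PKM2 experiment. This pattern was noticed after the values were seen, and the points share libraries.

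The deposited TPM and count of IL6ST disagreed in 1 library. The third NONO-knockdown library had 469.2 CPM of IL6ST, within the range of the other libraries, but 122.5 TPM against 72.6 to 87.9 TPM in the other 5 libraries of that experiment. The length that its count and TPM imply was 6493 bases against 9379 to 10930 bases in those 5. For IL6R the implied length ran from 4252 to 7348 bases over the 12 libraries. The cause was not tested.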
